A study of Mus musculus with 2 samples.

Results

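The genes described here encode the cornified envelope and the kallikreins, chosen by name from the gene table: every small proline-rich (Sprr), late cornified envelope (Lce) and kallikrein (Klk) gene, the transglutaminases Tgm1 to Tgm7, the calmodulin-like genes Calml3 and Calml4, the lipoxygenases Alox12b and Aloxe3, and 12 single genes (Ivl, Lor, Flg, Flg2, Krtdap, Sbsn, Cnfn, Crct1, Ppl, Evpl, Hrnr and Rptn). The rule itself used no measured value, but the members were chosen with earlier results of these data known. It took 98 of the 49492 genes in the table. Of these, 44 had no read in either library and 54 had at least 1 read. Of the 98 genes, 36 held at least 10 reads over both libraries and could be tested, and 62 could not.

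To ask which transcripts differ in cultures grown from mammary basal cells beside M2-like macrophages, a ctrl and an M2 library were compared. Each group had 1 library. In both, basal cells (lin-CD24+CD29hi) were FACS sorted from the glands of adult wild-type (WT) female mice, whose strain the labels do not give, and were grown as colonies and organoids in a 3D matrix gel with EGF and an insulin, transferrin and selenium supplement. The ctrl cells had no treatment, and how long this culture was grown is not stated. The M2 cells shared the well for 11 to 14 days with bone-marrow-derived macrophages that had been polarised with Il-4 and Il-13. These macrophages were held behind the porous membrane of an insert. Whether culture time differed between the libraries is therefore unknown. By FACS, the paper found mostly luminal cells in both kinds of culture, with a smaller luminal and a larger basal share after co-culture with M2. RNA of the cultures was sequenced in bulk, so fewer cells of a type and less RNA per cell cannot be told apart. Neither the number of animals pooled nor of cultures per library is stated.

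In stratified epithelium, the cornified envelope is a shell of cross-linked protein that replaces the plasma membrane of a keratinocyte as it dies. Envoplakin, periplakin and involucrin form its scaffold, transglutaminases join the proteins, and loricrin, the SPRR and the LCE proteins reinforce it, while filaggrin packs the keratin filaments inside. Kallikrein-related peptidases are secreted serine proteases, several of which cut the cell junctions of the outer layer so that dead cells are shed. The mammary gland is a skin appendage whose ducts do not normally cornify, although its epithelium can undergo squamous metaplasia, in which these genes are switched on.

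Most envelope genes tested had fewer reads in M2, and most kallikrein-related peptidases tested had more. A gene was called different at an adjusted p under 0.05 in an exact binomial test of the reads (two-sided) and at least a 2-fold difference. Of the 36 genes tested, 8 were called higher in M2 (22.2%), where 8.16% of all 19233 genes tested were, and 16 were called lower (44.4%), where 6.55% of all genes were. The remaining 12 were not called. The median log2 fold difference, M2 over ctrl, was -0.47, beside -0.0032 over all genes tested. There were no replicates, so the variation from culture to culture is unknown, and the test compares the libraries and not the conditions. When edgeR's exact test was run with the biological coefficient of variation assumed to be 0.2, the counts were 6 higher and 11 lower (5.01% and 3.59% of all genes), and at 0.4 they were 1 and 2 (0.910% and 0.676%).

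**Figure D1:**
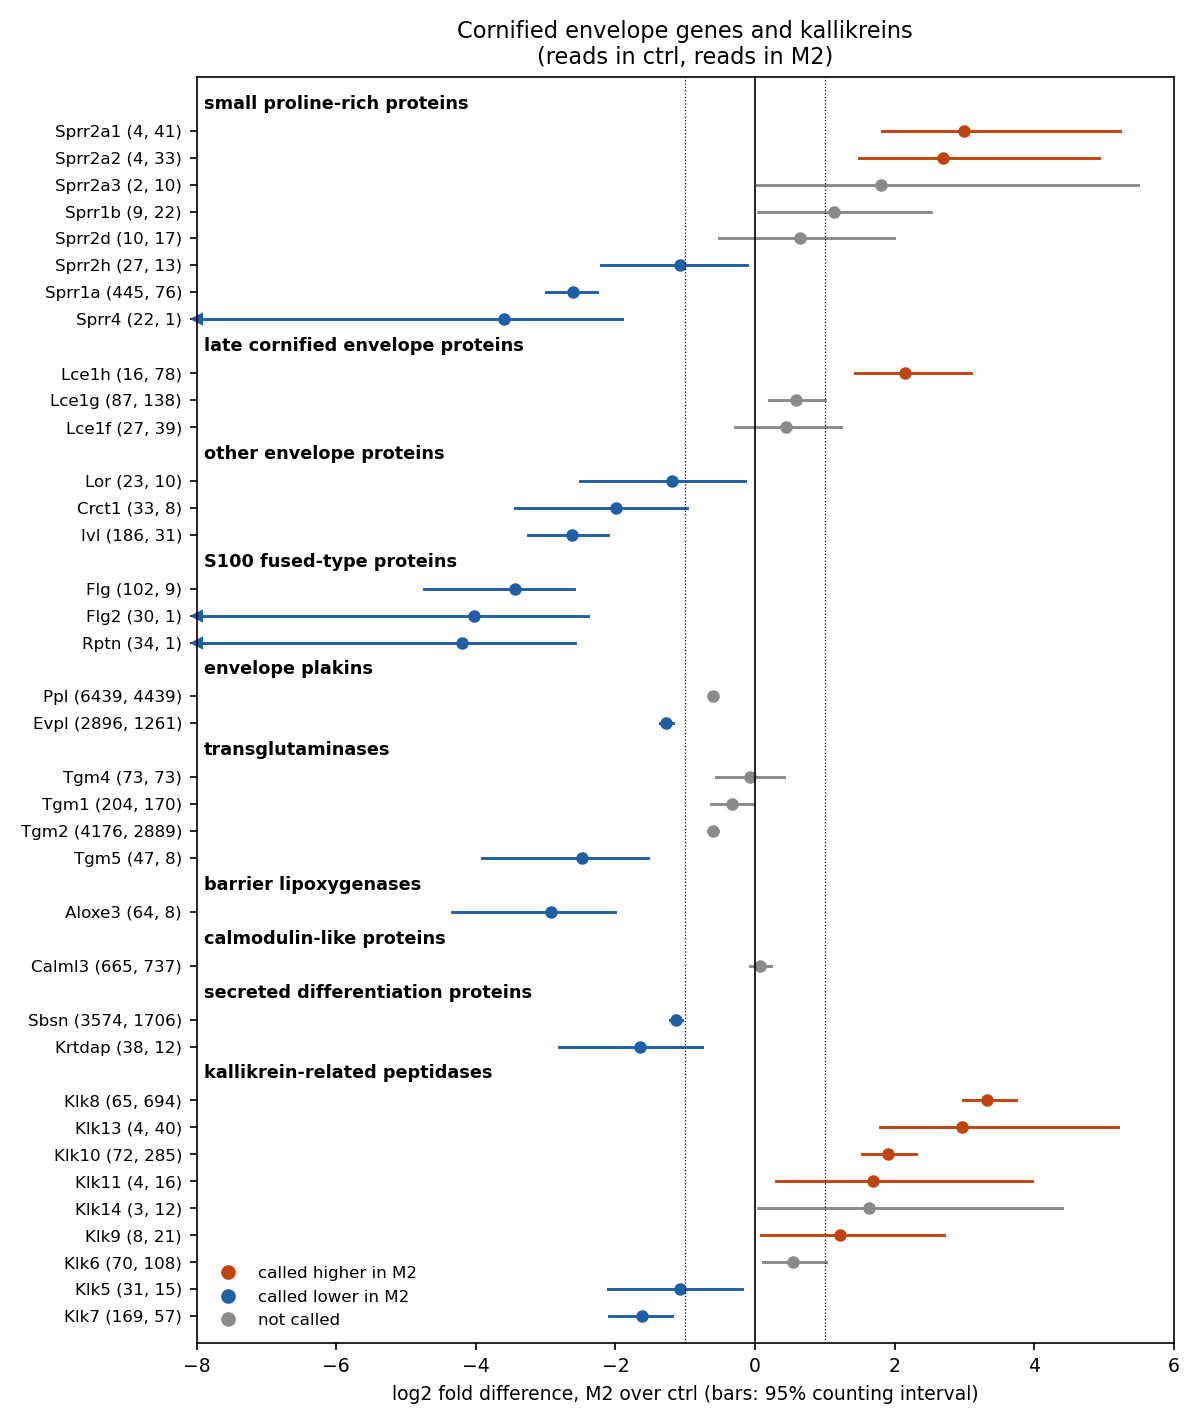
Log2 fold difference (x axis, M2 over ctrl) of the 36 genes tested, grouped by role, with the reads in ctrl and in M2 beside each name, bars for the 95% counting interval, arrowheads where a bar runs past the axis, and dotted lines at 2-fold. Rptn, Flg2 and Sprr4 lie furthest to the left, followed by Flg, and Klk8 furthest to the right, and the 5 kallikreins called higher stand apart from Klk5 and Klk7.

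The sequences before the start sites are shown for genes of the chromosome 3 cluster (Ivl, Sprr1a and Sprr2a1) and of the kallikrein locus (Klk7 and Klk8) that went in opposite directions. Each is the promoter window given by RefSeq on GRCm38.p6, from 250 bases before to 50 after the start, 5′ to 3′ on the strand of the gene. Capitals mark TGACTCA or its reverse complement TGAGTCA, the site recognised by AP-1 (Jun and Fos) factors, which are known regulators of involucrin and SPRR genes. Ivl (chr3:92573686-92573985, minus strand), Sprr1a (chr3:92485832-92486131, minus strand) and Klk7 (chr7:43811044-43811343, plus strand) were lower in M2, and Sprr2a1 (chr3:92215585-92215884, plus strand) and Klk8 (chr7:43797327-43797626, plus strand) were higher.
Ivl: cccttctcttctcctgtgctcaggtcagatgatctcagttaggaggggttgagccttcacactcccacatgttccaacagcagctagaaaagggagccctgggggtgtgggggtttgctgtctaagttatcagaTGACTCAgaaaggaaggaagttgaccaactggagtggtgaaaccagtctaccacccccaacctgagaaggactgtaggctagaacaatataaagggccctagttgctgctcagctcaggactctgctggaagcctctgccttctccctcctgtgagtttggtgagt
Sprr1a: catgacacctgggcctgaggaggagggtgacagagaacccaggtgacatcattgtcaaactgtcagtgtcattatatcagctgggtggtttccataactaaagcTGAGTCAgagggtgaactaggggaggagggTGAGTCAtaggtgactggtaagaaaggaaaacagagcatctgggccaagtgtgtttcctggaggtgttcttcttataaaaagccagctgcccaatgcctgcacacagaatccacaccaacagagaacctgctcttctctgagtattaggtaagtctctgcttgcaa
Sprr2a1: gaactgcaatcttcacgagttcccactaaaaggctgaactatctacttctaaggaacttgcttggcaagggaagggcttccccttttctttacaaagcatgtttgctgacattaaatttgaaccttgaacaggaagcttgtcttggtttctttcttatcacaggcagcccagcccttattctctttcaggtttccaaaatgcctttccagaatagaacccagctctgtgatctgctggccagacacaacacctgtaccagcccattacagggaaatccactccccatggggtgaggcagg
Klk8: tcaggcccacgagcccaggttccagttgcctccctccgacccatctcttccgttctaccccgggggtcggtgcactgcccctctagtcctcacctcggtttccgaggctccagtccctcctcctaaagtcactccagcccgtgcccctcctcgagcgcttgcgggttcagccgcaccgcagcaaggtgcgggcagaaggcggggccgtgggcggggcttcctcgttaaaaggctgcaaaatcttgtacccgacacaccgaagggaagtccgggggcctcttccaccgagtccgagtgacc
Klk7: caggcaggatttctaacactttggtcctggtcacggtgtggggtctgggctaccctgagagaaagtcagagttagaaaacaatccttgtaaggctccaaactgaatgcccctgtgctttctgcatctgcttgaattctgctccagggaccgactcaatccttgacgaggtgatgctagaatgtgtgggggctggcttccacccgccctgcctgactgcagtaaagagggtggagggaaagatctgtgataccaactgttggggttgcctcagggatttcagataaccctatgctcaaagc
The Ivl window holds the motif once, the Sprr1a window holds 2 copies, and the Sprr2a1, Klk8 and Klk7 windows hold none.

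Over both strands, TGACTCA was found in the windows of 12 of the 77 members that matched a RefSeq promoter by symbol (Ivl, Krtdap, Lor, Sbsn, Sprr1a, Sprr2b, Sprr2d, Sprr2e, Sprr2f, Sprr2h, Sprr2i and Sprr2k), and in 5.20% of all 32851 windows. It was present in 6 of the 13 genes called lower that had a window and in 0 of the 8 called higher. Those 8 include Sprr2a1 and Sprr2a2, whose windows are identical. At the share over all windows few or none of 8 would hold the motif, so the 0 cannot decide a difference. The Sprr2 genes are close copies, so the matches among them are not independent of each other. The GC box CCGCCC (reverse complement GGGCGG) was present in 10 members, among them Klk6, Klk7, Klk8 and Klk9, and in 35.7% of all windows. The grainyhead site AACCGGTT, which is its own reverse complement, was in none of the members and in 0.146% of all windows. A match describes the letters of the window and not a bound site.

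Libraries held 26912610 (ctrl) and 29413844 (M2) reads in genes. All tested markers of mammary basal cells were present in both, with 213718 and 222147 reads over 8 genes and 1 called (Oxtr, lower). Markers of other cell types also differed. Of the 8 interfollicular epidermis markers 6 were called lower, with a summed level of 73.1 CPM (reads scaled to library size) in ctrl and 5.79 CPM in M2. Luminal markers were called lower for 5 of 8 (3156 and 2420 CPM), and fibroblast markers were called lower for 3 of 7 and higher for 1 (330 and 134 CPM). Macrophage markers gave 9.90 and 9.02 CPM with none of 2 tested called, and Adgre1, Tyrobp, Fcer1g and Ptprc were at 0 in both libraries. Of the hair follicle markers Krt25, Krt27 and Krt35 were at 0 and neither of the 2 tested was called (13.8 and 21.1 CPM). The part of these cell types in the results was not tested.

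The scaffold and cross-linking genes held most of the reads. All members together took 19703 reads in ctrl (717 CPM) and 13104 in M2 (455 CPM), and Ppl, Tgm2, Sbsn and Evpl alone gave 86.7% and 78.6% of them. Periplakin (Ppl) had 6439 ctrl and 4439 M2 reads. This is -0.61 on the log2 scale (95% counting interval -0.66 to -0.55), under 2-fold and not called. Envoplakin (Evpl), its partner in the scaffold, had 2896 and 1261 reads and was called lower (-1.27, -1.37 to -1.17). Involucrin (Ivl), which lines the inner face of the membrane in the same scaffold, fell from 186 to 31 reads (-2.62, -3.25 to -2.10). The counting intervals of the scaffold genes did not overlap in this pair of libraries. They hold counting error alone, so a different size of change between the conditions cannot be told without replicates.

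Among the transglutaminases, 1 of 4 tested was called. Tgm5, an epidermal enzyme, had 47 reads in ctrl and 8 in M2 (log2 -2.48, -3.92 to -1.53). Tgm1, the main envelope transglutaminase of keratinocytes, had 204 and 170 reads (-0.33, -0.63 to -0.03) and was not called. Tgm2, the tissue transglutaminase, which is not specific to cornification, had 4176 and 2889 (-0.60, -0.67 to -0.53), also under 2-fold, and shares 370 exonic bases with Rprd1b and 633 with Gm20412 on the other strand. Tgm4, the prostate enzyme, had 73 reads in each library, but shares exonic bases with Zdhhc3 on the other strand and with a further annotated transcript on its own. Tgm3 and Tgm7 had at most 3 reads per library and Tgm6 had none. The counting intervals of the cross-linking enzyme Tgm1 and the scaffold protein Ivl do not overlap in this pair of libraries. Whether the conditions change both genes by different amounts cannot be told without replicates.

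All 3 tested genes of the S100 fused type, large repeat proteins made in granular keratinocytes, were called lower. Filaggrin (Flg) had 102 reads in ctrl and 9 in M2 (log2 -3.43, -4.74 to -2.59). Repetin (Rptn) had 34 reads and 1 read (-4.20, -10.50 to -2.58), and filaggrin-2 (Flg2) had 30 reads and 1 read (-4.02, -10.33 to -2.39). Hornerin (Hrnr) had 5 reads and 0, too few to test, and a count of 0 in M2 allows up to 0.104 CPM. The 4 genes together had 171 and 11 reads (-3.91, -5.06 to -3.15). Flg and Rptn were the only members still called lower at an assumed coefficient of variation of 0.4. Epidermis marker sums moved with this group, as given above, and 1 of those markers is Flg2 itself.

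Other proteins of late differentiation also had fewer reads in M2. Loricrin (Lor), the main bulk protein of the epidermal envelope, had 23 reads and 10 (log2 -1.19, -2.51 to -0.14, adjusted p = 0.0425 by the exact binomial test). Crct1, a cysteine-rich protein of the same cluster, had 33 and 8 (-1.99, -3.44 to -0.97). Suprabasin (Sbsn), a secreted protein of suprabasal layers, had 3574 and 1706 (-1.14, -1.22 to -1.05), and Krtdap, a secreted peptide whose gene lies close to Sbsn on chromosome 7, had 38 and 12 (-1.65, -2.80 to -0.77). Aloxe3, a lipoxygenase needed to bind lipid to the envelope, had 64 and 8 (-2.92, -4.34 to -2.0), while its partner Alox12b had no read in either library. Sbsn shares 279 exonic bases with another annotated transcript on its own strand. The calmodulin-like gene Calml3, an epithelial calcium sensor, had 665 and 737 reads (0.08, -0.07 to 0.23) and was not called. The call of Lor was lost at an assumed coefficient of variation of 0.1, and those of Sbsn and Krtdap at 0.2. Calml4 had 5 reads and 1 read and Cnfn had 1 read and 7, too few to test.

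The small proline-rich genes were split. Of 17 genes, 8 were tested, of which 2 were called higher and 3 lower. Sprr1a, the most abundant of them in ctrl, fell from 445 to 76 reads (log2 -2.60, -2.99 to -2.27). Sprr4 had 22 reads and 1 read (-3.59, -9.90 to -1.90), and Sprr2h had 27 and 13 (-1.07, -2.20 to -0.12, adjusted p = 0.0482 by the exact binomial test). These 3 were called lower, although the call of Sprr2h was lost at an assumed coefficient of variation of 0.1. Sprr2a1 had 4 reads in ctrl and 41 in M2 (3.00, 1.82 to 5.23), and Sprr2a2 had 4 and 33 (2.70, 1.48 to 4.93), so that both rose from few counted reads. Sprr1b, a close relative of Sprr1a, had 9 and 22 reads (1.13, 0.04 to 2.52) and was not called, at an adjusted p of 0.0571 by the exact binomial test.

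Reads of the Sprr2a copies cannot be kept apart with certainty. Reads that match several genes may also have been left out, since their handling is not stated. Summing the copies cannot restore such reads, so their level and their ratio to Sprr1a may be understated. Of all 50-base stretches in their annotated transcripts, 96.3% in Sprr2a1, 96.5% in Sprr2a2 and 61.1% in Sprr2a3 also occur in another gene. The promoter windows of Sprr2a1 and Sprr2a2 are identical over 300 of 300 bases, and that of Sprr2a3 matches Sprr2a1 at 80 of 300. The windows were compared position by position without alignment. A shifted start would lower the match, so the 80 cannot show that the Sprr2a3 window has diverged. The annotations of Sprr2a1 and Sprr2a2 start at 92215799 and 92215920, and whether their windows are separate places was not tested. Their annotated exons share 43 bases on the same strand. Summed over Sprr2a1, Sprr2a2 and Sprr2a3, there were 10 reads in ctrl and 84 in M2 (log2 2.88, 2.05 to 4.11). The 10 other Sprr2 genes together had 41 and 37 (-0.21, -0.90 to 0.46). The rise of the Sprr2a copies in this pair of libraries thus held with their reads summed. Their counting interval lies above that of the remaining Sprr2 genes. Within a library, there were 0.0225 Sprr2a reads per Sprr1a read in ctrl (0.0107 to 0.0417) and 1.11 in M2 (0.801 to 1.53), a ratio that was chosen after the values were seen and has no test.

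Of the late cornified envelope genes, which act in the outermost layers, the 1 called was higher in M2, unlike Ivl and Lor. Of 21 genes, 13 had no read and 3 could be tested. Lce1h was called higher, with 16 ctrl and 78 M2 reads (log2 2.15, 1.43 to 3.09). Lce1g had 87 and 138 (0.59, 0.20 to 1.0) and Lce1f had 27 and 39 (0.45, -0.28 to 1.23), and neither was called. All 6 Lce3 genes, known for induction by skin injury, were at 0 in both libraries. The 14 Lce1 genes together had 136 and 256 reads (0.84, 0.54 to 1.15), with 19.9% of the 50-base stretches of Lce1h also found in other genes. Summed over the Sprr and Lce genes with Ivl and Lor, the difference was -0.83, and without Sprr1a it was -0.03.

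**Figure D2:**
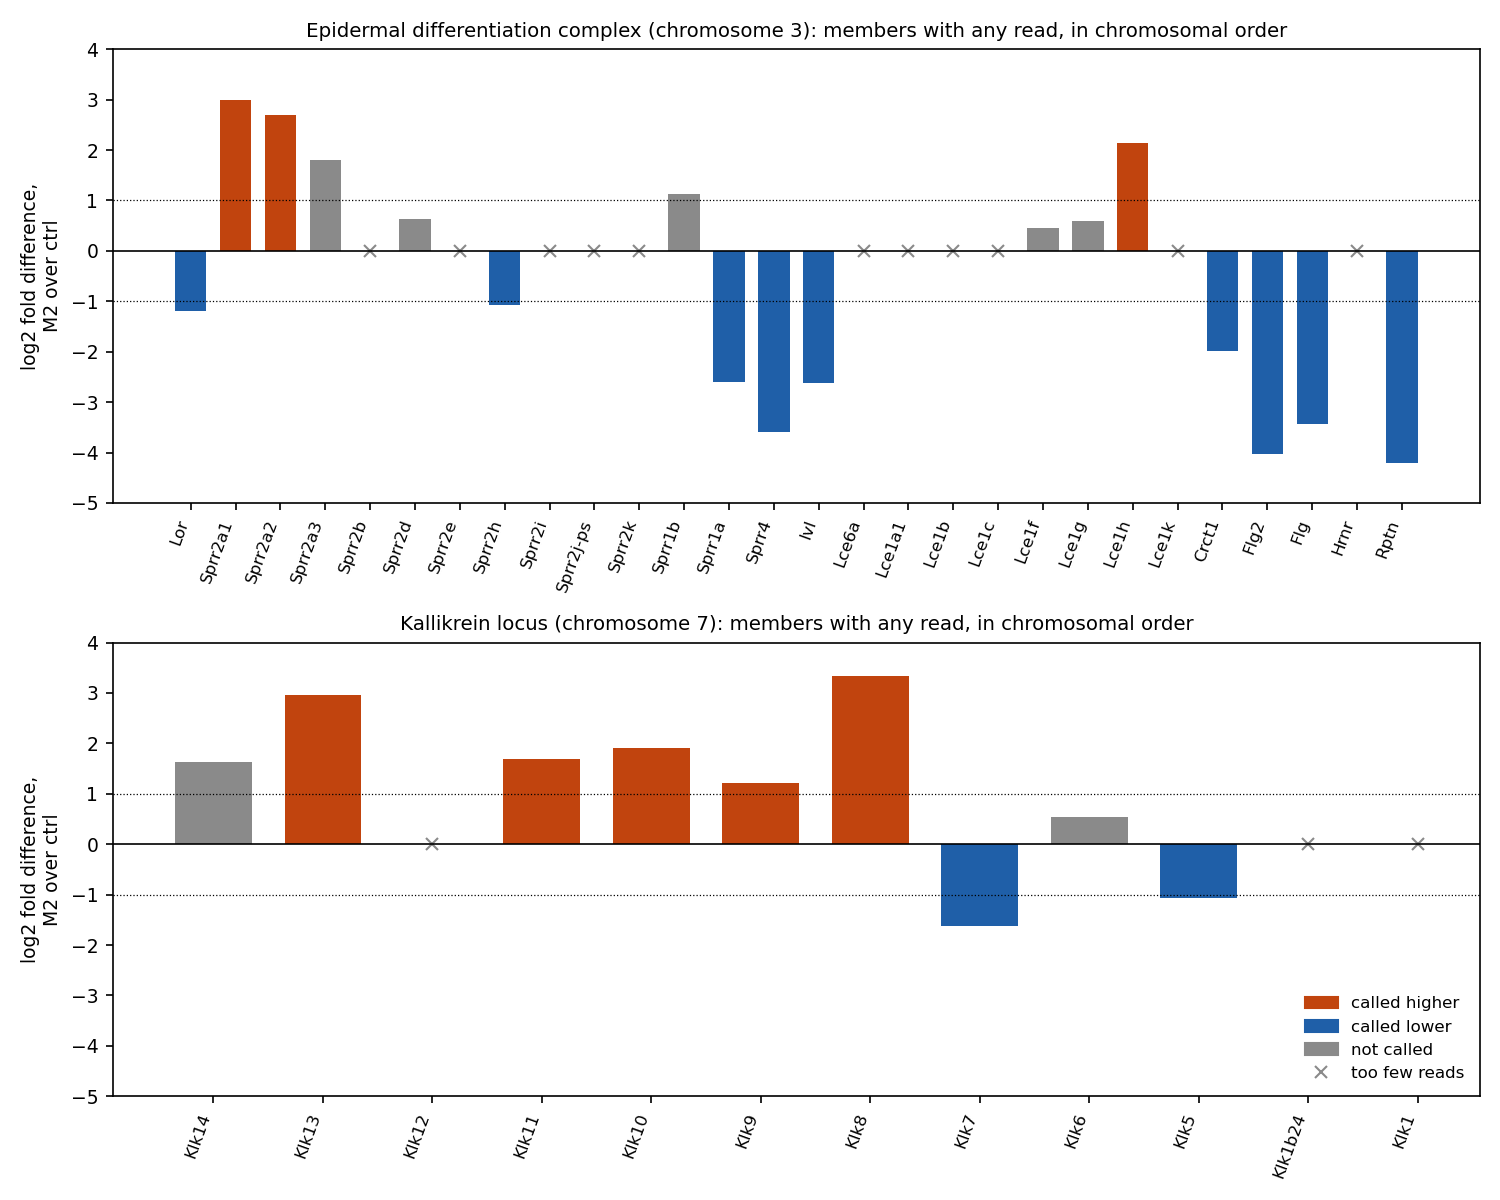
Log2 fold difference (y axis, M2 over ctrl) of members with any read, in chromosomal order along the epidermal differentiation complex on chromosome 3 (top) and the kallikrein locus on chromosome 7 (bottom), with crosses for genes with too few reads and dotted lines at 2-fold. In the top panel bars above and below 0 stand side by side, and in the bottom panel the genes tested from Klk14 to Klk8 lie above 0 and Klk7 and Klk5 below.

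Both directions occurred inside each gene cluster. The epidermal differentiation complex, the array on chromosome 3 that holds the Sprr, Lce, Ivl, Lor and Flg genes, contains 45 members from Lor at 92080271 to Rptn at 93399442 on GRCm38. Of the 17 tested there, 3 were called higher and 9 lower. The kallikrein locus on chromosome 7 contains 37 members between 43690418 and 44229618, of which 9 were tested, 5 called higher and 2 lower.

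Kallikrein-related peptidases (Klk4 to Klk15) rose as a group, carried by Klk8. Of the 12 genes, 9 were tested, and their summed reads were 428 in ctrl and 1253 in M2 (log2 1.48), but 0.55 without Klk8, which is under 2-fold. Klk8, also called neuropsin, a protease of brain and of epidermis under stress, rose from 65 to 694 reads (3.33, 2.98 to 3.74) and was the only member still called higher at an assumed coefficient of variation of 0.4. Klk10, a member with tumour suppressor activity reported in breast, rose from 72 to 285 (1.90, 1.54 to 2.31). Klk13 rose from 4 to 40 reads (2.97, 1.78 to 5.20).

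Weaker calls came from genes with few reads. Klk11 had 4 reads in ctrl and 16 in M2 (log2 1.70, 0.30 to 3.97, adjusted p = 0.0249 by the exact binomial test) and Klk9 had 8 and 21 (1.22, 0.09 to 2.71, adjusted p = 0.0478 by the same exact test). Both calls were lost at an assumed coefficient of variation of 0.1, and that of Klk9 also when libraries were scaled by their raw totals. Klk14 had 3 and 12 reads (1.63, 0.04 to 4.40) and was not called, and Klk12 had 2 and 5, too few to test. The 7 neighbouring genes from Klk14 to Klk8, a stretch chosen after the values were seen and given without a test, together had 158 and 1073 reads.

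Klk7 and Klk5 were called lower, unlike Klk8. Klk7, the chymotrypsin-like enzyme of the stratum corneum that cuts corneodesmosomes, had 169 reads in ctrl and 57 in M2 (log2 -1.62, -2.10 to -1.20). Klk5, the trypsin-like enzyme that activates it, had 31 and 15 (-1.07, -2.11 to -0.18, adjusted p = 0.0246 by the exact binomial test), a call lost at an assumed coefficient of variation of 0.1. Klk6, which lies between them on the chromosome, had 70 and 108 reads (0.55, 0.11 to 1.01) and was not called. Direction thus varied among neighbours, and the annotated ends of Klk8 and Klk7 lie 7.47 kb apart. Within a library there were 0.385 Klk8 reads per Klk7 read in ctrl (0.284 to 0.515) and 12.2 in M2 (9.29 to 16.2), a ratio chosen after the values were seen.

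No 50-base stretch of the annotated transcripts of Klk5 to Klk11 or Klk13 occurs in the same orientation in those of another gene. Antisense matches and copies outside annotated transcripts were not searched. An antisense transcript, 2310002F09Rik, shares 382 exonic bases with Klk8 and 287 with Klk14. It had 45 reads in ctrl and 255 in M2. Whether strand was used in the counting is not stated, so reads in the shared bases cannot be assigned with certainty, and its part in the rise of Klk8 was not tested.

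The glandular kallikreins, which in mice are proteases of the salivary gland and kidney, were all but absent. Of the 25 genes (Klk1, the Klk1b genes and Klk2-ps), 23 had no read in either library, Klk1 had 5 ctrl reads and 0 in M2, and Klk1b24 had 3 and 0. None could be tested. Klk4 and Klk15 also had no read. A count of 0 allows up to 0.109 CPM in ctrl and 0.104 CPM in M2.

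**Figure D3:**
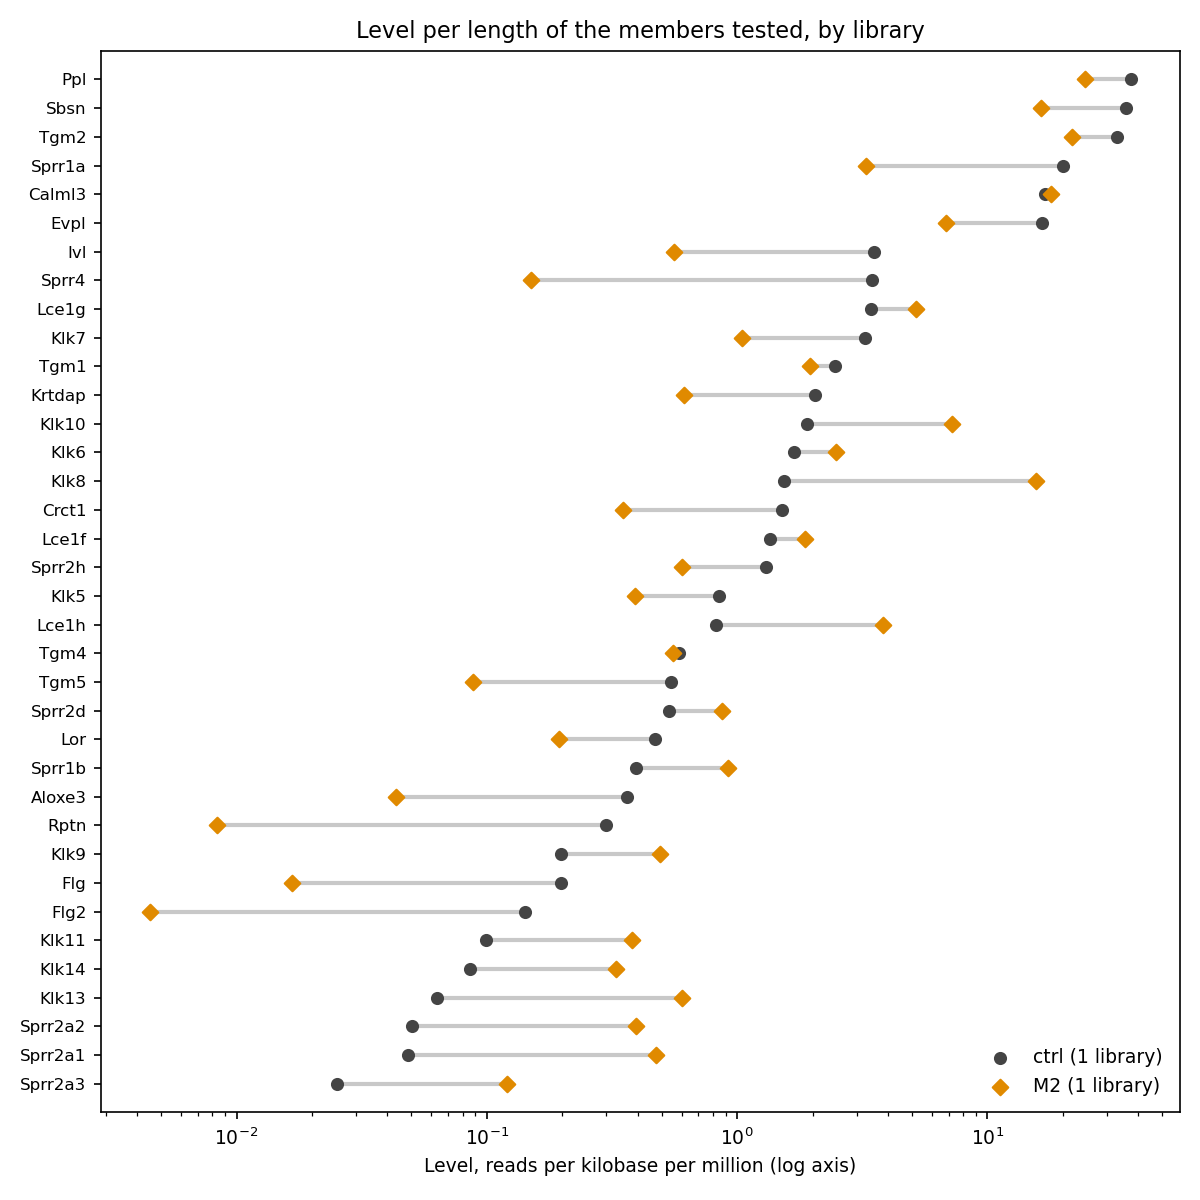
Level of the 36 genes tested in RPKM, reads scaled by gene length and library size (x axis, log scale), with circles for the ctrl library and diamonds for the M2 library. Ppl is highest in both, Klk8 moves from 1.54 to 15.6 and Ivl from 3.52 to 0.560.

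Compared per length, the order of the genes tested differed between the libraries. In RPKM, which scales reads by gene length and library size, Ppl was first in both libraries (37.3 in ctrl and 24.5 in M2). Klk8 went from rank 15 of the genes tested (1.54 RPKM) to rank 5 (15.6 RPKM), and Klk10 from rank 13 (1.91) to rank 6 (7.20). Sprr1a went from rank 4 (20.1) to rank 10 (3.27), and Ivl from rank 7 (3.52) to rank 20 (0.560). Klk8 was the kallikrein with the highest level in M2, whereas Klk7 was in ctrl (3.25 RPKM, and 1.04 in M2). The filaggrin-type genes were rare per length even in ctrl, with Rptn at 0.299 and Flg2 at 0.142 RPKM.

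**Figure D4:**
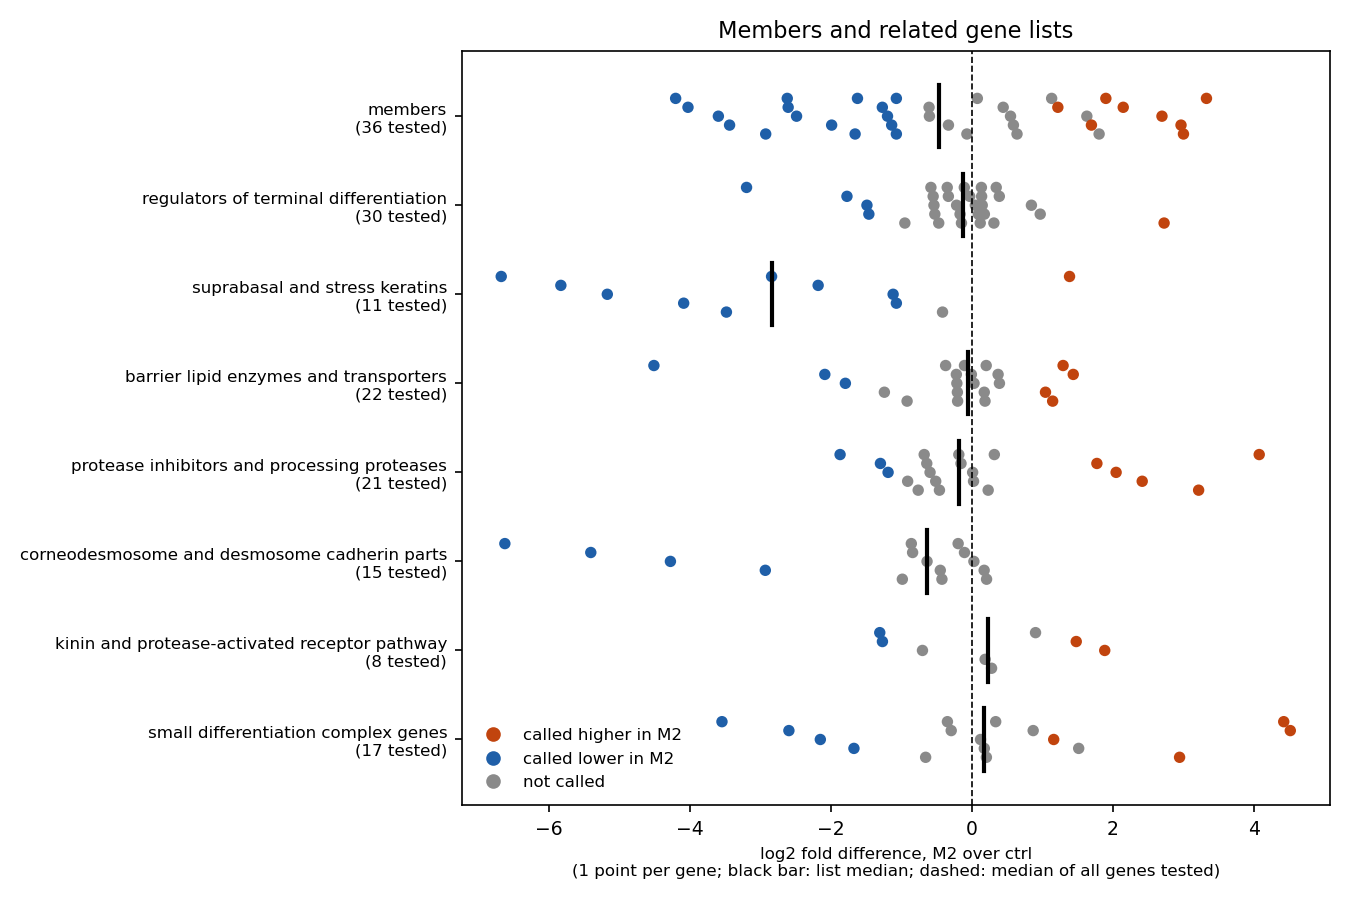
Log2 fold difference (x axis, M2 over ctrl) of the members and of 7 lists of related genes, 1 point per gene tested, with black bars at each list's median and a dashed line at the median of all genes tested. The keratin list has the lowest median (-2.84), and in the corneodesmosome list the 4 genes called lower stand apart from the rest.

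Genes that act with the envelope were examined by list, again as counts beside the background shares given above. Of the genes named from them, the calls of Krt6a, Slpi, S100a10, Acer2 and Bdkrb2 were lost at an assumed coefficient of variation of 0.2. At 0.4, 21 of the 32 genes named by rule lost their call. Still called at 0.4 were Krt1, Krt10, Krt78, Dsg1a, Dsg1b, Dsc1, Serpinb2, Barx2 and Npr1. Of 11 suprabasal and stress keratins tested, 9 were called lower and 1 higher (median log2 -2.84). Krt1 had 273 ctrl and 7 M2 reads (-5.17), and its partner Krt10 had 1228 and 75 (-4.08). Krt78, a keratin of differentiated layers, had 4973 and 91 (-5.83). The stress keratins Krt6a (27168 and 13157, log2 -1.12) and Krt16 (9775 and 1433, log2 -2.84) were lower as well, while Krt17 was higher (6051 and 16592, log2 1.39). Keratins of the suprabasal program thus fell together with Flg, Ivl and Sprr1a in this pair of libraries.

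The list of corneodesmosome and desmosome parts, which holds cadherins and plaque proteins beside corneodesmosin, had 4 of 15 genes called lower and 0 higher (median log2 -0.63). Desmoglein 1 is encoded by Dsg1a, which had 1405 reads in ctrl and 14 in M2 (-6.62), by Dsg1b (349 and 18, log2 -4.27) and by Dsg1c (57 and 7, log2 -2.93). Desmocollin 1 (Dsc1) had 281 and 6 (-5.40). All 4 are cadherins of differentiated layers. Corneodesmosin (Cdsn), a known substrate of Klk5 and Klk7, had 693 and 367 reads (-0.98, -1.17 to -0.80) and was not called. Cdsn was named after its values were seen. The highest value in the list was 0.21 on the log2 scale.

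Protease inhibitors and processing proteases went both ways, with 5 of 21 called higher and 3 lower (median log2 -0.18). Spink5, which encodes LEKTI, the inhibitor of epidermal kallikreins, had 2130 ctrl and 910 M2 reads (-1.30), and Slpi, an inhibitor of neutrophil elastase and of Klk7, had 16075 and 7409 (-1.19). There were 10.7 Spink5 reads per read of Klk5 and Klk7 in ctrl (9.21 to 12.4) and 12.6 in M2 (9.94 to 16.3), intervals that overlap, whereas per Klk8 read there were 32.8 (25.6 to 42.6) and 1.31 (1.19 to 1.45). These ratios were chosen after the values were seen and have no test. They compare read counts and do not measure inhibition, and whether LEKTI acts on Klk8 was not tested. Ctsc, the activator of granule serine proteases, was higher (2009 and 7210, log2 1.77), as was Serpinb2, an inhibitor of plasminogen activators found in the envelope (40 and 724, log2 4.08).

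Regulators of terminal differentiation had 1 of 30 called higher and 4 lower (median log2 -0.13). The grainyhead factor Grhl1, which controls desmosomal cadherins, had 2277 reads in ctrl and 852 in M2 (-1.49), the zinc finger factor Casz1 had 2389 and 911 (-1.46) and the homeobox factor Barx2 had 1638 and 187 (-3.19). Nfe2l3, a relative of Nrf2, was higher (179 and 1249, log2 2.73). Klf4, a driver of barrier formation, had 1588 and 1435 (-0.22), and Grhl3 had 217 and 223 (-0.03). Neither was called, and the interval of Grhl3 was -0.31 to 0.25.

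Barrier lipid genes had 4 of 22 called higher and 3 lower (median log2 -0.05). Elovl4, which makes the very long fatty acids of skin ceramides, had 504 reads in ctrl and 124 in M2 (-2.08), while Dgat2 (255 and 727, log2 1.44), the glucosylceramide synthase Ugcg (210 and 542, log2 1.29) and the ceramidase Acer2 (216 and 503, log2 1.15) were higher. The lipid genes were called in both directions, unlike the S100 fused-type genes.

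The kinin and protease-activated receptor pathway, through which tissue kallikreins and several KLKs signal, had 2 of 8 genes called higher and 2 lower (median log2 0.23). The peptidases Mme (11932 and 5202 reads, log2 -1.27) and Ace (4750 and 2017, log2 -1.30) were lower. Higher were the peptidase Cpm (15 and 61, log2 1.88) and the kinin receptor Bdkrb2 (13 and 40, log2 1.48). The kininogen genes Kng1 and Kng2 had no read. A further list held chromosome 3 genes in or around the differentiation complex that the rule did not take. Of its 17 tested genes, 4 were called higher and 4 lower (median log2 0.18). Those named here lie outside the stretch from Lor to Rptn. S100a10 (1596 and 3747, log2 1.16) and the peptidoglycan recognition protein Pglyrp3 (46 and 379, log2 2.95) were higher, and S100a4 (263 and 86, log2 -1.67) and Npr1 (110 and 9, log2 -3.54) were lower.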

How the data were processed

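The authors deposited 1 table of raw read counts per gene, without normalization, for 1 ctrl and 1 M2 library, with gene positions and lengths. Builds GRCm38 and mm10 are named in the submitters' processing notes. The aligner, counting tool and use of strand are not given in the sources used here. All 98 members have a name found in GENCODE M21. Library sizes were scaled by TMM in edgeR 4.0.16 (R 4.3.3), with factors of 1.02 and 0.980. The log2 fold difference used a pseudocount of 1. Genes with at least 10 reads over both libraries were tested by a two-sided exact binomial test (SciPy 1.17.1), with Benjamini-Hochberg adjustment over all 19233 genes. Intervals are 95% Clopper-Pearson intervals of the reads without the pseudocount. A gene without reads can hide up to 3 reads. No molecular identifiers are stated, so these limits reflect counting error alone. RPKM was computed from the lengths in the table. Scripts were tested on simulated data. Alternatives covered scaling, filters, pseudocounts, the fold threshold, an assumed coefficient of variation of 0.1, 0.2 or 0.4 and summed paralogs.

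The members and lists were chosen with earlier results of these data known. Named were every member called, members not called with at least 100 reads in 1 library, and from each related list the 4 called genes with most reads, plus Krt1, Krt10, Klf4, Grhl3 and Spink5. Other members named, and Oxtr, were added after their values were seen. Sts and Krt85 were not used here.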

Additional observations from a re-analysis of the deposited data

How the results depend on the processing

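No member or named gene changed direction under any alternative run. All 36 members kept their call under median-of-ratios or upper quartile scaling, TMM without mitochondrial genes and a pseudocount of 0.5. Raw totals lost the call of Klk9, a filter of at least 1 read lost Klk9, Lor and Sprr2h, and a pseudocount of 3 lost Klk5 and Sprr2h. The 8 members called higher and 16 lower became 2 and 5 when at least 1 CPM was required in both libraries, which left 14 members to test, 5 and 8 at a 4-fold threshold, and 1 and 2 at an assumed coefficient of variation of 0.4. The 17 genes of the related lists called higher and 29 lower became 10 and 17, 8 and 17, and 4 and 11 in the same order. The median of -0.47 moved to -0.84 over the 54 members with at least 1 read and to -0.61 with close paralogs summed to 31 genes. The summed kallikrein-related peptidases (log2 1.48) were not called at the 4-fold threshold or at the coefficient of 0.4 (1.48 in both), and fell under the threshold without Klk8 (0.55). The S100 fused-type and plakin genes summed to -0.80, to -1.34 without Ppl and to -3.91 without Ppl and Evpl, of which the last was chosen after seeing the data. The transglutaminases summed to -0.59, and to -0.44 without Tgm2. Neither the quasi-likelihood test nor DESeq2 could be run, and no replicate could be left out, since both need replicates. No paired analysis was possible because there is 1 library for each group. The glandular kallikreins had 8 reads in all and gave no value.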
